A study of Mus musculus with 22 samples.

Results

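The genes examined were 42 genes of hepatic fatty acid oxidation and ketone body handling, chosen by symbol and found in the GRCm38 annotation, among 15448 genes in the deposited count table. All 42 were in the table and all 42 passed the filter on low counts that left 14785 genes tested. By compartment, 20 act mainly in mitochondria, 12 in peroxisomes, 1 in ketone body formation, and 9 elsewhere in uptake, activation and regulation. In the liver, fatty acids are bound, activated to acyl-CoA and carried on carnitine into mitochondria, where a repeating cycle of dehydrogenation, hydration, a second dehydrogenation and thiolysis releases acetyl-CoA for ketone body synthesis. Peroxisomes run a parallel cycle that shortens very long chain and branched acids and passes the products on. Many genes of both routes are known targets of the fatty acid sensing nuclear receptor encoded by Ppara, with the fasting factor encoded by Creb3l3 as a partner.

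Liver polyA RNA came from male wild-type CD2F1 mice, 1 library per mouse, in a study of how a bile acid made with gut bacteria bears on liver cholesterol in cachexia. The CT group was 6 mice without tumour, sham-injected and labelled as vehicle-treated. The C26 group was 8 mice transplanted with C26 cells, a mouse colon carcinoma line used as a cachexia model, described as untreated; whether they received vehicle injections is not stated in the labels. The C26-TDCA group was 8 mice with the same tumour cells that received 10 mg/kg of TDCA, the taurine conjugate of deoxycholic acid, by daily intraperitoneal injection. The livers are the tumour host's own tissue, the labels give no age, and no mice without tumour received TDCA, so a TDCA effect can be read against the tumour background only, and from these labels an effect of TDCA and one of daily injection cannot be told apart.

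Each library held 16.5 to 28.3 M counts, and 3 counts corresponded to 0.100 to 0.179 counts per 1e6 (CPM). Levels below are TMM-normalised CPM per mouse, and changes are log2 fold changes with standard errors (SE) from edgeR's quasi-likelihood test, adjusted over all genes by Benjamini-Hochberg, with adjusted p under 0.05 as the call. The 20 most abundant genes took 21.6 to 21.9% of counts in CT and 33.1 to 39.9% in C26. Summed over 10 hepatocyte markers, the level was 63980 to 72889 CPM in CT and 31126 to 40504 in C26. Much of this sum was Alb, at 38896 to 45535 CPM in CT and 10471 to 18101 in C26. Of the 10 markers 4 fell, 1 rose and 5 were not called, with a median of -0.12, where 29.2% of all genes fell. Apoa1 (5308 to 6797 CPM in CT, 4039 to 7973 in C26) and Apob (4483 to 5338 and 3705 to 5935) overlapped between groups. The hepatocyte receptor gene Asgr1 ranged from 311 to 353 CPM in CT and from 322 to 435 in C26. In whole liver, fewer cells of a type and less RNA per cell cannot be told apart.

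In tumour-bearing liver most of the oxidation genes were lower than in CT liver. Against CT, 33 of the 42 genes fell in C26 and 3 rose, where 29.2% of all genes tested fell and 28.9% rose. The genes that rose were Cd36, a membrane fatty acid translocase, Crat, carnitine acetyltransferase, and Crot, the peroxisomal carnitine octanoyltransferase. Those not called were Creb3l3, Cpt1a, Etfb, Acaa1a, Vnn1 and Pdk4. The median log2 fold change over the 42 genes was -0.66, against -0.00 over all genes, and 15 genes fell by more than 1 log2 unit, where 7.52% of all genes did so. In 30 of the 42 every C26 mouse lay below every CT mouse, which held for 15.3% of all genes. As shares of all raw counts, without TMM scaling, the genes together took 1.43 to 1.64% in CT and 0.436 to 0.653% in C26. Without Fabp1, the most abundant of them, the shares were 1.09 to 1.20% and 0.416 to 0.573%. Such shares also move with the other genes of a library.

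**Figure D1:**
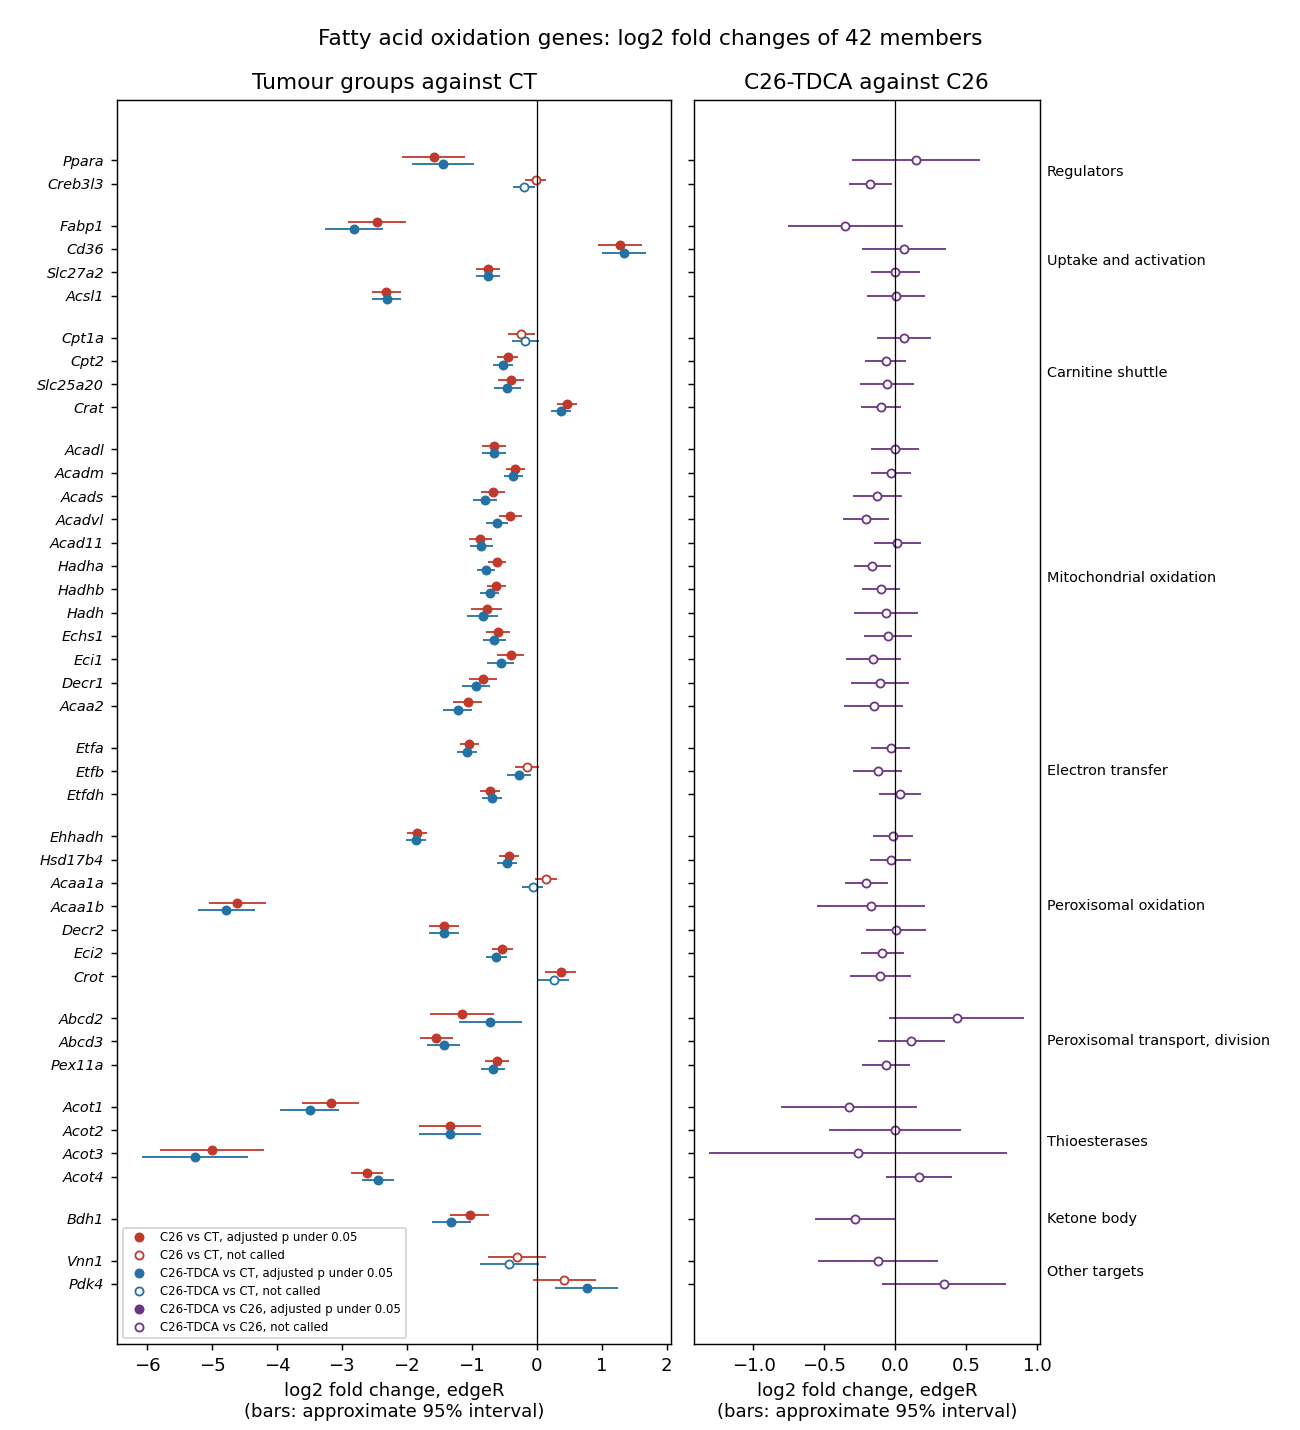
Log2 fold change of each of the 42 genes (x axis, edgeR) by gene (y axis, grouped by role at the right), for the tumour groups against CT (left) and C26-TDCA against C26 (right); bars are approximate 95% intervals and filled points have an adjusted p under 0.05. Most points at the left lie below 0, with Acot3 and Acaa1b farthest, while Cd36, Crat and Crot lie above it; no point at the right is filled.

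The nuclear receptor gene Ppara (chr15:85734983-85802819 in GRCm38) fell, and its partner Creb3l3 was not called. Ppara ranged from 111 to 159 CPM in CT, with a median of 137, and from 22.7 to 75.6 in C26, with a median of 42.7. The groups did not overlap, and the C26 mice were spread widely. The log2 fold change was -1.59 (SE 0.25, adjusted p = 6.1e-06). Creb3l3 encodes a membrane-bound transcription factor released during fasting. Its level ran from 324 to 370 CPM in CT, with a median of 340, and from 282 to 386 in C26, with a median of 339. The C26 range enclosed the CT range, and the log2 fold change of -0.02 (SE 0.08, adjusted p = 0.862) changed sign with the scaling. With the length and GC trend across genes removed, Creb3l3 was called lower, at -0.19 (adjusted p = 0.0445).

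Of the 4 uptake and activation genes, 3 fell and Cd36 rose. Fabp1, the liver fatty acid binding protein and the most abundant of the 42 genes per kilobase of transcript, at a mean of 5495 CPM per kb in CT and 999 in C26, ranged from 2596 to 3770 CPM in CT (median 2932) and from 210 to 840 in C26 (median 576). Every C26 mouse was below every CT mouse, and Fabp1 fell by 2.46 on the log2 scale (SE 0.23, adjusted p = 1.55e-09). Acsl1, the long chain acyl-CoA synthetase that activates fatty acids, went from 801 to 991 CPM in CT (median 917) to 135 to 253 in C26 (median 175). That difference of -2.32 (SE 0.11, adjusted p = 1.47e-14) had the smallest p of the role. Slc27a2, a very long chain acyl-CoA synthetase and transporter, was 1148 to 1491 CPM in CT (median 1292) and 619 to 929 in C26 (median 789), again without overlap, at -0.75 (SE 0.09, adjusted p = 2.88e-07).

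Cd36 moved the other way. It was 10.1 to 13.7 CPM in CT (median 11) and 21.2 to 42.9 in C26 (median 24.4), with every C26 mouse above every CT mouse, and rose by 1.28 (SE 0.17, adjusted p = 7.73e-07). Cd36 is also expressed by endothelial cells and macrophages, and marker genes of some other liver cells moved with it, where 28.9% of all genes rose. Of 12 sinusoidal endothelial markers 10 rose, with a summed level of 313 to 380 CPM in CT and 405 to 696 in C26. Of 12 Kupffer cell markers 11 rose, from 298 to 345 CPM summed in CT to 488 to 747 in C26. Of 12 stellate cell markers 9 rose and 1 fell, from 215 to 295 CPM summed to 340 to 549. Of 9 monocyte and neutrophil markers tested 7 rose and 0 fell. Of 7 erythroid markers 6 rose and 1 fell, of 7 cholangiocyte markers 4 rose, and both adipocyte markers in the table rose. Lymphocyte markers did not rise: 2 of 3 T and NK cell markers and 1 of 6 B and plasma cell markers fell. Only 3 of the 8 listed T and NK cell markers were in the table, with a low summed level of 2.47 to 3.86 CPM in CT and 0.69 to 2.04 in C26. None of these markers in the table was at 0 in all mice of a group. The fatty acid binding gene of capillaries and fat, Fabp4, was 4.78 to 7.91 CPM in CT and 7.40 to 14.6 in C26. The part of endothelial cells, macrophages and other cells in the Cd36 result was not tested.

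The peroxisome proliferator response element is a direct repeat of a hexamer with 1 base between the copies (DR1). In RefSeq windows from 250 bases before to 50 bases after the start (GRCm38.p6), available for 36 of the 42 genes, the relaxed repeat, 2 copies of AGGNCA in the same direction with any 1 base between them, was found on either strand in 1 of the 36, Fabp1, and in 0.451% of 27025 genes. Its stretch is shown because it holds the only match and Fabp1 was the most abundant of the genes. It lies at chr6:71199787-71199849 on the plus strand, and the repeat, in capitals and read on the minus strand, runs from -67 to -55 of the RefSeq start.
Fabp1: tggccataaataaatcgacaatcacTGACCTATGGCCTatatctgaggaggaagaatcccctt
The stricter repeat of AGGTCA with the same spacing was in 0 of the 36 windows and in 0.0481% of all genes. A single AGGTCA, which overlaps any match of the stricter repeat, was in 27.8% of the 36 and 18.1% of all genes, and covered genes that fell (Acadm, Slc27a2), one that rose (Cd36) and others that were not called (Cpt1a, Creb3l3). These matches describe the letters in a short window only.

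In the carnitine shuttle, which carries acyl groups across the mitochondrial membranes, the changes were small. Cpt1a encodes the outer membrane carnitine palmitoyltransferase, the regulated entry step. It was 577 to 765 CPM in CT (median 598) and 413 to 675 in C26 (median 538), so the groups overlapped. The log2 fold change was -0.24 (SE 0.11, adjusted p = 0.0573), and it was called at -0.40 (adjusted p = 0.00336) once a trend of fold change with gene length and GC content was removed. Cpt2, the inner membrane enzyme, fell from 114 to 127 CPM (median 120) to 72.1 to 102 (median 85.7), at -0.45 (SE 0.08, adjusted p = 2.99e-05), with no overlap. The translocase between them, Slc25a20, was 70.3 to 78.6 CPM in CT (median 73.2) and 43.4 to 68.3 in C26 (median 58.9), at -0.40 (SE 0.10, adjusted p = 0.0021). Crat, which handles acetyl groups in mitochondria and peroxisomes, rose from 24.4 to 31.4 CPM (median 29.6) to 33.6 to 45.5 (median 39.5), also without overlap, at 0.47 (SE 0.08, adjusted p = 1.5e-05). Crat shares its locus with Dolpp1 on the other strand, and the strand setting of the counting is not given in the sources used here, so its reads cannot be fully assigned.

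All 12 enzymes of the mitochondrial cycle fell, within a narrow band from -1.06 (Acaa2) to -0.33 (Acadm) with a median of -0.64. Acaa2, the thiolase that ends the cycle, was 643 to 718 CPM in CT (median 661) and 219 to 387 in C26 (median 352), at -1.06 (SE 0.11, adjusted p = 2.06e-08). Acad11, an acyl-CoA dehydrogenase family member, fell from 248 to 286 CPM (median 260) to 123 to 176 (median 142), at -0.87 (SE 0.09, adjusted p = 1.25e-08). Neither gene had overlapping groups. Acad11 overlaps a coding locus on its own strand, so reads in the shared part may be missing from its count. The acyl-CoA dehydrogenases for very long, long, medium and short chains, Acadvl, Acadl, Acadm and Acads, changed by -0.41, -0.66, -0.33 and -0.67. Acadm, the medium chain enzyme with the smallest decline of the 12, was 248 to 275 CPM in CT (median 255) and 174 to 237 in C26 (median 199), still without overlap. Acadvl was 156 to 183 CPM in CT (median 162) and 98.3 to 146 in C26 (median 129), and overlaps Dvl2 on the other strand. The later steps showed the same direction: Hadh, hydroxyacyl-CoA dehydrogenase, at -0.77, Echs1, enoyl-CoA hydratase, at -0.60, and the auxiliary enzymes for unsaturated acids Decr1 at -0.83 and Eci1 at -0.40. In 11 of the 12 every C26 mouse was below every CT mouse.

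Hadha and Hadhb encode the alpha and beta subunits of the trifunctional protein, which joins the last steps for long chains in a single complex, and they changed by nearly the same amount. Hadha was 309 to 356 CPM in CT (median 320) and 171 to 240 in C26 (median 213), at -0.62 (SE 0.07, adjusted p = 6.47e-08). Hadhb was 153 to 196 CPM in CT (median 163) and 88.9 to 122 in C26 (median 112), also at -0.62 (SE 0.07, adjusted p = 1.01e-07). Per kilobase of the longest coding transcript (4017 bases for Hadha, 2048 for Hadhb) their levels were close in each group. The median ratio of Hadha to Hadhb was 0.981 in CT, 0.978 in C26 and 0.979 in C26-TDCA, with a range over all mice from 0.785 to 1.08. The longest annotated transcript of Hadhb has 4388 bases, so the closeness to 1 depends on the lengths used. The genes lie head to head on chromosome 5, and their GENCODE starts have 85 bases between them. The like change is not particular to this pair, since Echs1 (-0.60) and Acadl (-0.66), on other chromosomes, changed by similar amounts. That shared stretch, chr5:30155163-30155247 on the plus strand, was read from the RefSeq window of Hadhb. It is printed because it is all that separates the start sites of the pair, and capitals mark the GC box GGGCGG.
Hadha-Hadhb: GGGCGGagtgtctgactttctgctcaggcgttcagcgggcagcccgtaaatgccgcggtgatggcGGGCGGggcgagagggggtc
A GC box on either strand was in 25 of the 36 windows of the 42 genes (69.4%) and in 38.2% of all genes, and a TATAAA box in 5.56% and 15.7%; the pair with TATAAA were Fabp1 and Acot4.

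Electrons from the dehydrogenases pass through the electron transfer flavoprotein to the respiratory chain. Its alpha subunit gene Etfa was 243 to 269 CPM in CT (median 249) and 101 to 140 in C26 (median 128), at -1.04 (SE 0.08, adjusted p = 3.26e-11). Etfdh, the membrane dehydrogenase that receives these electrons, fell from 215 to 246 CPM (median 228) to 122 to 181 (median 128), at -0.72 (SE 0.08, adjusted p = 4.55e-08). Neither overlapped between groups. The beta subunit gene Etfb was listed far lower, at 13.9 to 16.6 CPM in CT (median 15) and 10.7 to 17.4 in C26 (median 13.6), and was not called (-0.16, SE 0.09, adjusted p = 0.158). It was called lower with the length and GC trend removed (-0.21, adjusted p = 0.0219) and without C26 mouse 6 (-0.22, adjusted p = 0.0375). Per kilobase, the ratio of Etfa to Etfb had a median of 11.1 in CT and 5.95 in C26. Etfb overlaps other annotated genes on its own strand, a coding locus among them, so reads in the shared part may be missing from its count and the ratio is uncertain.

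**Figure D2:**
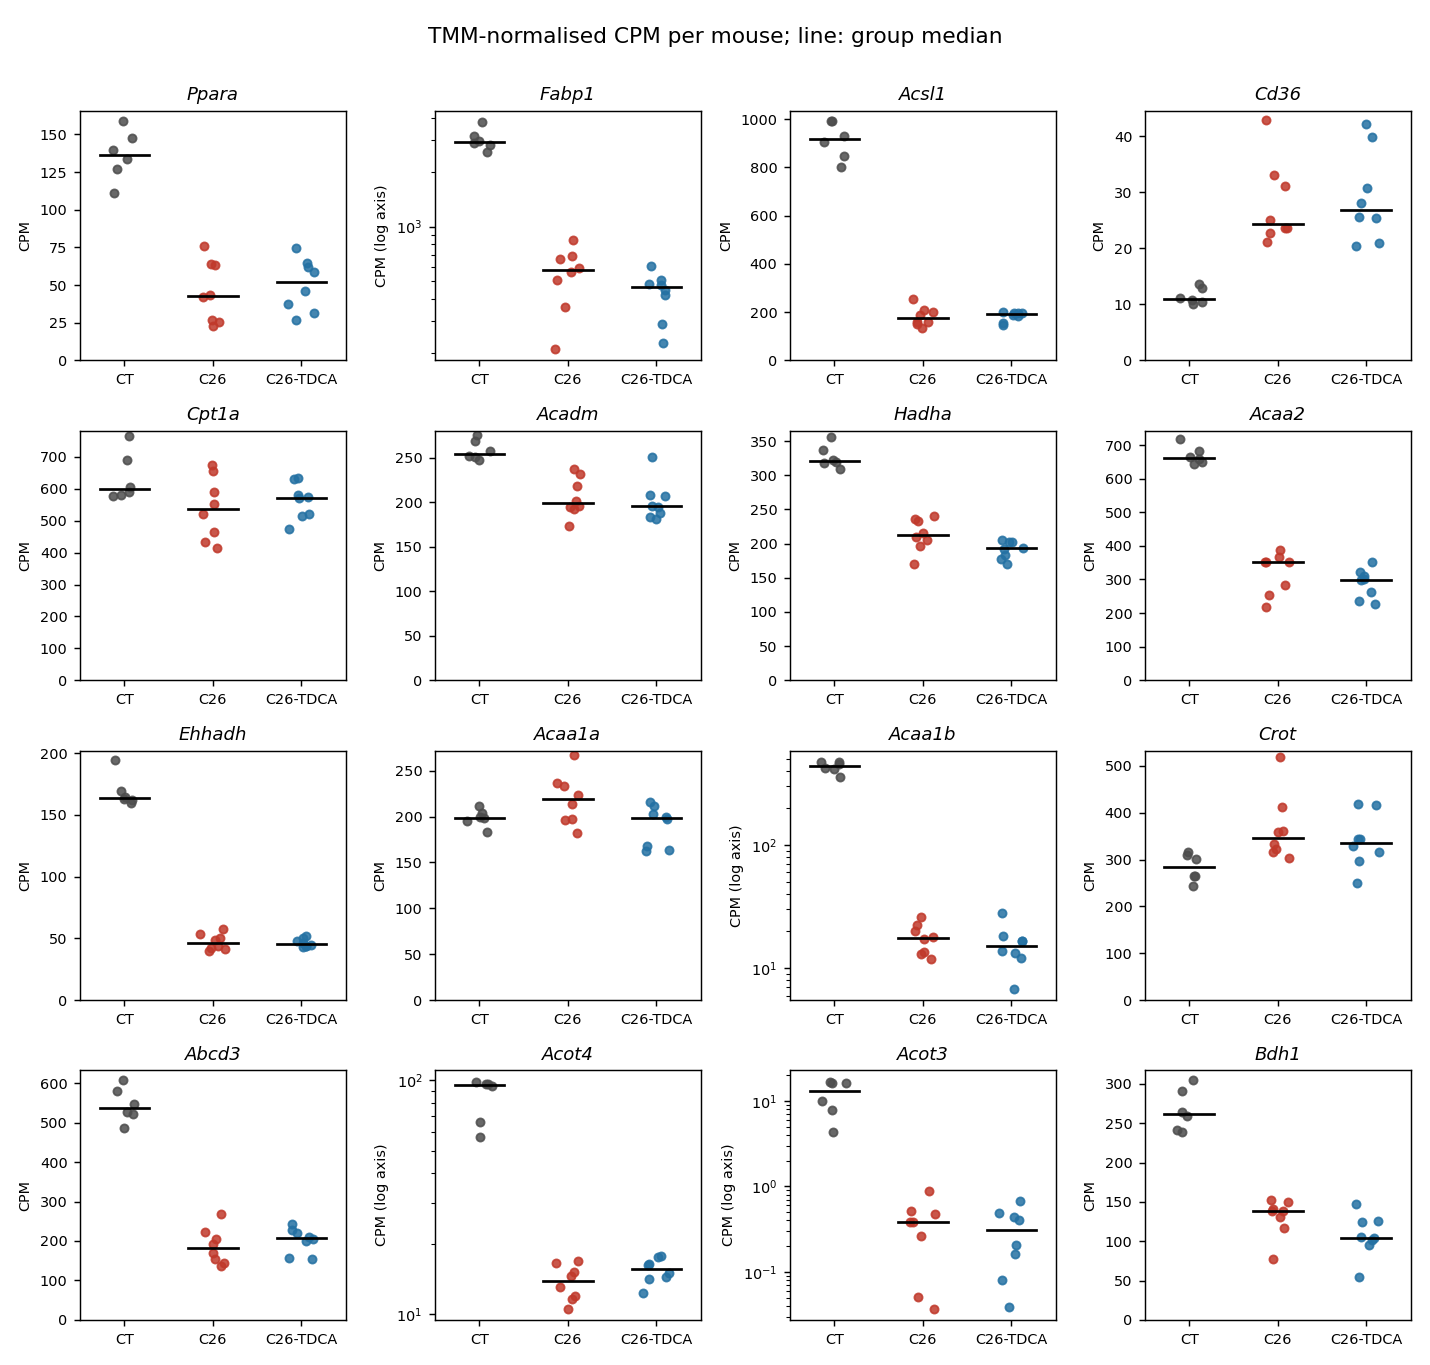
TMM-normalised CPM (y axis, logarithmic for Fabp1, Acaa1b, Acot4 and Acot3, from 0 otherwise) in each mouse of CT, C26 and C26-TDCA (x axis) for 16 of the genes; points are mice and lines are group medians. Ppara, Acsl1, Ehhadh, Acaa1b and Acot4 drop in every tumour-bearing mouse, Cpt1a and Acaa1a overlap, and Cd36 is higher in every tumour-bearing mouse.

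Peroxisomal genes were more uneven than the mitochondrial ones. Of the 7 peroxisomal oxidation genes 5 fell, Crot rose and Acaa1a was not called. Ehhadh, the L-specific bifunctional enzyme, was 159 to 194 CPM in CT (median 164) and 39.6 to 57.2 in C26 (median 46.4). That drop of -1.84 (SE 0.08, adjusted p = 8.56e-16) had the smallest p of the 42 genes. Decr2, the peroxisomal dienoyl-CoA reductase, went from 121 to 165 CPM (median 136) to 37.4 to 66.9 (median 54.3), at -1.43 (SE 0.12, adjusted p = 1.74e-10). The D-specific bifunctional enzyme Hsd17b4, at 326 to 364 CPM in CT (median 342) and 203 to 290 in C26 (median 267), and the isomerase Eci2, which is also found in mitochondria, fell by less, at -0.42 and -0.53. Crot, which prepares shortened acyl groups for export as carnitine esters, was 244 to 316 CPM in CT (median 283) and 303 to 519 in C26 (median 345), with overlapping groups, at 0.37 (SE 0.12, adjusted p = 0.0112).

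The thiolase that closes the peroxisomal cycle is encoded by the neighbouring copies Acaa1a and Acaa1b on chromosome 9, 182.6 kb apart, and the copies behaved differently. Acaa1b (chr9:119148023-119157093) was 357 to 473 CPM in CT (median 438) and 12 to 25.9 in C26 (median 17.6), at -4.61 (SE 0.22, adjusted p = 1.13e-14). Acaa1a was 183 to 211 CPM in CT (median 199) and 182 to 267 in C26 (median 219), at 0.14 (SE 0.08, adjusted p = 0.158); it was called higher with upper-quartile scaling and lay below 0 once the trend of fold change with gene length and GC was removed. The C26 range of Acaa1a enclosed the CT range, while for Acaa1b the groups were far apart. Acaa1b made up 64.7 to 70.4% of the summed CPM of the copies in CT and 6.15 to 10.8% in C26, and the sum itself fell from 552 to 672 CPM to 194 to 285. Per kilobase, the median ratio of Acaa1a to Acaa1b was 0.433 in CT and 13.2 in C26. Their longest coding transcripts are 96.6% identical over 1428 aligned bases, with an identical run of up to 327 bases. How reads matching both copies were counted is not given in the sources used here, so the level of each copy is uncertain. The sum does not depend on the split, but does miss reads that were dropped. On the other strand, Acaa1a also overlaps Myd88 and Acaa1b overlaps Dlec1. With the strand setting not given, reads in these shared parts cannot be fully assigned.

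The 130 bases before each RefSeq start are shown because the copies differ in log2 fold change, with transcripts 96.6% identical over 1428 aligned bases. Both are read 5′ to 3′ along the gene, with CCAAT boxes (CCAAT or its reverse complement) and GC boxes (GGGCGG) in capitals. The Acaa1a stretch is chr9:119341164-119341293 on the plus strand and the Acaa1b stretch chr9:119157094-119157223 on the minus strand.
Acaa1a: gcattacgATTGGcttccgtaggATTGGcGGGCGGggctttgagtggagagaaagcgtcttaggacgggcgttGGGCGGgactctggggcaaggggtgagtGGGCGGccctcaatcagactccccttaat
Acaa1b: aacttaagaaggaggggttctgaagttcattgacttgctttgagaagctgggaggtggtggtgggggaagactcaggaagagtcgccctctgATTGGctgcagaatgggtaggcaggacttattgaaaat
These stretches were 69.2% identical over 107 aligned pairs of bases. Acaa1a held 3 GC boxes, 2 CCAAT boxes and 9 CG dinucleotides, with a GC content of 60.8%, whereas Acaa1b held 0, 1 and 1, with 49.2%. A CCAAT box was in 52.8% of the 36 windows and in 41.1% of all genes. Whether these stretches bear on the different changes of the copies was not tested.

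The genes for peroxisomal transport and division fell in all 3 cases. Abcd3, an acyl-CoA transporter of the peroxisomal membrane, was 485 to 609 CPM in CT (median 537) and 136 to 269 in C26 (median 181), at -1.55 (SE 0.13, adjusted p = 3.28e-10). Its relative Abcd2 was low, at 3.19 to 8.40 CPM in CT (median 6.39) and 1.39 to 3.76 in C26 (median 2.64), and fell by 1.15 (SE 0.25, adjusted p = 0.000421) with overlapping groups. Pex11a, a factor of peroxisome division, was 66.4 to 90.2 CPM in CT (median 73.9) and 42.9 to 67.1 in C26 (median 49.6), at -0.61 (SE 0.09, adjusted p = 4.62e-06), overlapping through 1 high C26 mouse.

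The acyl-CoA thioesterases, which release free fatty acid from CoA, all fell, with a median of -2.89 over the 4 genes. Acot1, Acot2, Acot4 and Acot3 lie in a cluster at chr12:83987861-84060402 and encode cytosolic, mitochondrial and peroxisomal enzymes. Acot4 was 57.2 to 98.3 CPM in CT (median 95.1) and 10.6 to 16.8 in C26 (median 13.8), at -2.61 (SE 0.13, adjusted p = 1.18e-14). Acot1 was 9.20 to 12 CPM in CT (median 11.5) and 0.53 to 1.87 in C26 (median 1.19), at -3.17 (SE 0.23, adjusted p = 1.69e-11). For Acot3 the CT mice ranged from 4.28 to 16.7 CPM (median 13.0) and the C26 mice from 0.0373 to 0.871 (median 0.384). Its fitted change of -5.0 (SE 0.41, adjusted p = 1.92e-10) is imprecise in size, since 2 of the 8 C26 mice had 3 counts or fewer. Acot2 fell by 1.33. The 4 had no overlap between groups, and their sum went from 72.9 to 130 CPM in CT to 13.4 to 20.4 in C26. CT mice 2 and 6 had the lowest levels of Acot3 and Acot4 in their group. Acot1 and Acot2 transcripts are 94.3% identical over 1330 aligned bases, with a run of 273, so their single levels are uncertain. Acot3 and Acot4 overlap an antisense gene and a coding locus on their own strand, so reads in the shared parts may be missing from their counts.

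Bdh1, which reduces acetoacetate to beta-hydroxybutyrate, was the only ketogenic enzyme among the 42 genes. It was 239 to 305 CPM in CT (median 262) and 77.0 to 152 in C26 (median 138), without overlap, and fell by 1.03 (SE 0.15, adjusted p = 3.38e-06). The remaining targets were not called. Pdk4, the kinase that shuts pyruvate dehydrogenase, was 1.24 to 3.04 CPM in CT (median 1.46) and 1.37 to 3.78 in C26 (median 2.30), at 0.43 (SE 0.25, adjusted p = 0.149), and was called higher without CT mouse 1. Vnn1, a pantetheinase of CoA turnover, was 7.57 to 16.9 CPM in CT (median 13.3) and 3.93 to 15.7 in C26 (median 10.6), at -0.30 (SE 0.23, adjusted p = 0.269). For both genes the groups overlapped, and both were low in every mouse.

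Compared by compartment, 17 of 20 mitochondrial genes fell, 1 rose and 2 were not called, with a median log2 fold change of -0.62 and a range from -1.33 to 0.47. Among the 12 peroxisomal genes 10 fell, 1 rose and 1 was not called, with a median of -1.29 and a range from -5.0 to 0.37. Declines of more than 1 log2 unit were found in 3 of the 20 and in 7 of the 12. Without the thioesterases the peroxisomal median was -0.88, and without genes whose products occupy both organelles (Crat, Acad11 and Eci2) the medians were -0.62 and -1.43. The difference between the compartments is a description with no test, since the genes of a set are not replicates. In single mice, the median over the mitochondrial genes relative to the CT mean, on log2(CPM + 0.5), ran from -0.89 to -0.46 in C26 and that over the peroxisomal genes from -1.53 to -0.78. The peroxisomal median was the lower of the pair in every C26 and C26-TDCA mouse.

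**Figure D3:**
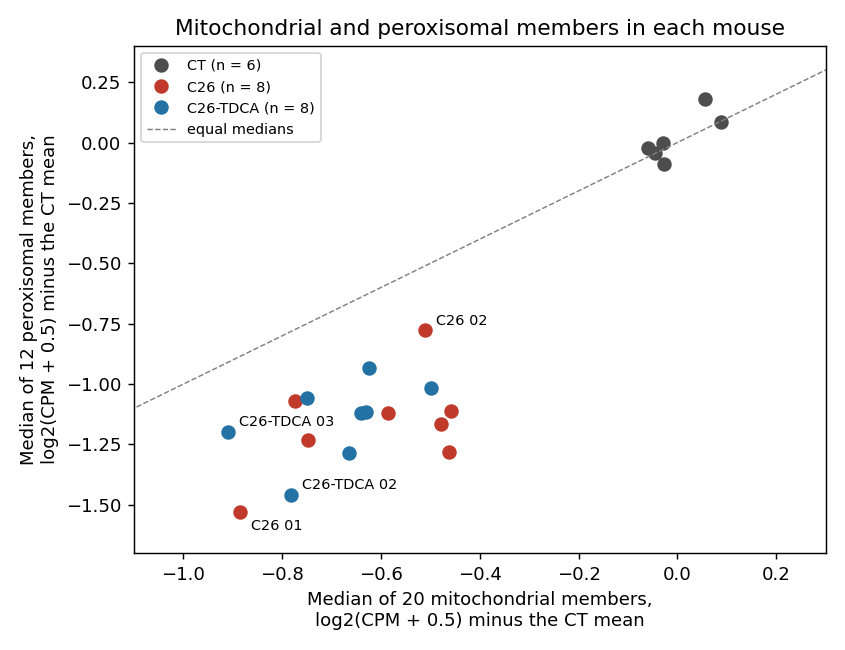
Each mouse by the median over 20 mitochondrial genes (x axis) and over 12 peroxisomal genes (y axis), both as log2(CPM + 0.5) minus the CT mean; the dashed line marks equal medians. All 16 tumour-bearing mice lie below the line and below the CT mice, from C26 mouse 1 at -0.89 and -1.53 to C26 mouse 2, which has the highest peroxisomal median at -0.78.

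The median coefficient of variation over the 42 genes was 8.24% in CT, 16.5% in C26 and 12.8% in C26-TDCA. C26 mouse 1 had the lowest level of its group for 25 of the 42 genes, and C26 mouse 2 the highest for 15. In the C26-TDCA group mouse 3 was lowest for 15 genes and mouse 7 highest for 18. Without C26 mouse 1 the counts against CT were 33 lower and 3 higher, with 13 genes lower by more than 1 log2 unit.

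**Figure D4:**
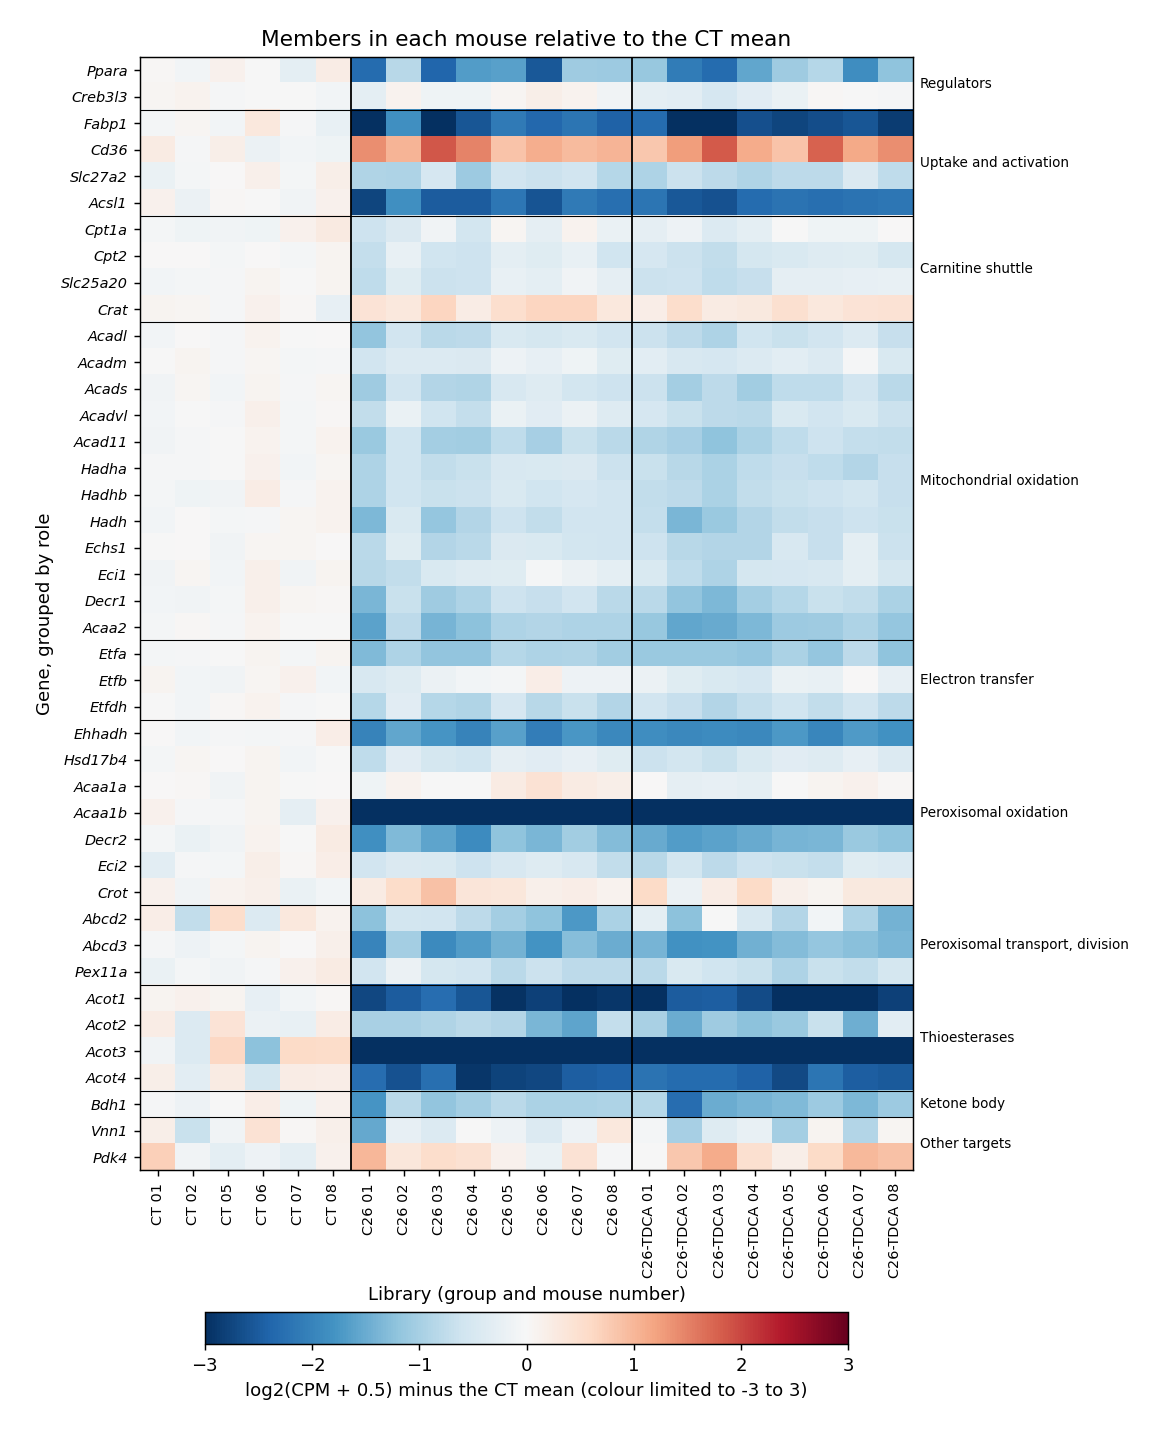
Level of the 42 genes (rows, grouped by role) in each of the 22 mice (columns), as log2(CPM + 0.5) minus the CT mean, with the colour limited to -3 to 3. The blue rows of Fabp1, Acsl1, Ehhadh, Acaa1b, Acot1, Acot3 and Acot4 run across all 16 tumour-bearing mice, the mitochondrial block is paler and even, and Cd36 is red throughout.

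TDCA treatment of tumour-bearing mice changed none of the 42 genes by the test. Between C26-TDCA and C26, edgeR called 0 of the 42 in either direction, where 1.97% of all genes were called, and DESeq2 and limma's voom with quality weights also called 0. At an unadjusted p under 0.05 there were 4 genes, where 15.8% of all genes passed. All 4 were lower with TDCA. Hadha was 170 to 205 CPM in C26-TDCA (median 193), at -0.16 (SE 0.07, adjusted p = 0.219). Acadvl was 93.4 to 121 CPM (median 107), at -0.21 (SE 0.08, adjusted p = 0.213). Both ranges overlapped those of C26. Acaa1a was 163 to 216 CPM (median 198), at -0.20 (SE 0.08, adjusted p = 0.186), and Creb3l3 was 244 to 352 CPM (median 290), at -0.18 (SE 0.08, adjusted p = 0.268).

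Over the 42 genes the TDCA differences ran from -0.35 (Fabp1) to 0.43 (Abcd2), with a median of -0.07, and 31 of 42 were below 0, where 53.2% of all genes were. The median was -0.07 for the mitochondrial and -0.05 for the peroxisomal genes. In 33 of the 42 the approximate 95% interval lay within 0.5 log2 units of 0, and in 41 within 1. The exception was Acot3, whose interval ran from -1.31 to 0.79. Fabp1, at 228 to 609 CPM in C26-TDCA (median 462), had an interval from -0.76 to 0.05. Bdh1, at 54.5 to 147 CPM (median 104), differed by -0.29 (SE 0.14, adjusted p = 0.336). For Ppara, 27.2 to 74.5 CPM (median 52.2), the interval was -0.31 to 0.60. These intervals leave small effects of TDCA on single genes undecided at this number of mice.

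The comparison of C26-TDCA with CT shares its CT mice with that of C26, so the counts are given side by side only. Against CT, 34 of the 42 genes fell in C26-TDCA and 3 rose (Cd36, Crat and Pdk4), where 28.2% of all genes fell and 28.7% rose; 14 fell by more than 1 log2 unit, where 7.23% of all genes did. In 28 genes all 16 tumour-bearing mice lay below all 6 CT mice, which held for 12.6% of all genes. For Acaa1b, at 6.81 to 28.3 CPM in C26-TDCA (median 15.2), the change from CT was -4.78 (SE 0.22, adjusted p = 6.27e-15), beside -4.61 in C26. Ehhadh, at 43.2 to 51.9 CPM (median 45.5), stood at -1.86, beside -1.84. Ppara differed from CT by -1.44 and Acsl1 by -2.31, beside -1.59 and -2.32. Bdh1 was lower by 1.32 on this scale, at -1.32 (SE 0.15, adjusted p = 8.46e-08), beside -1.03. Pdk4, at 1.61 to 4.14 CPM (median 2.97), rose by 0.77 (SE 0.25, adjusted p = 0.0105), and Etfb fell by 0.28 (SE 0.09, adjusted p = 0.0136); neither was called in C26. Crot, called in C26, was not called here (0.26, adjusted p = 0.0666), but was with voom (0.26, adjusted p = 0.0351), with 2 groups only, with upper-quartile scaling and without C26-TDCA mouse 2.

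Genes of the same pathways outside the 42 were taken from 6 lists with 137 entries, of which 128 were in the table. In C26 against CT 80 of the 128 fell, 15 rose and 33 were not called, with a median of -0.44. Over all genes tested, 29.2% fell and 28.9% rose. Of 11 further genes of ketone body synthesis, use and transport, 8 fell and 1 rose, with a median of -0.52. The log2 fold change was -0.87 for Sirt3, a mitochondrial deacetylase, -2.41 for Bdh2, a cytosolic dehydrogenase, and -1.41 for the monocarboxylate transporter Slc16a7, and all 3 fell. Against C26, no gene of this list was called in C26-TDCA by edgeR, and 3 had an unadjusted p under 0.05.

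Among 27 further mitochondrial oxidation genes 22 fell and 2 rose, with a median of -0.65. Pcca, a subunit of propionyl-CoA carboxylase, fell by 1.22, and the dehydrogenases Acadsb and Acad10 fell by 0.90 and 1.12. Ucp2, the uncoupling protein also expressed by macrophages, rose from 16.7 to 20.8 CPM to 50.4 to 87.4, by 2.0 (SE 0.11, adjusted p = 4.74e-13). Among 28 further genes listed with peroxisomal oxidation 18 fell and 4 rose, with a median of -0.38. Acot12, a cytosolic thioesterase kept in that list, fell by 1.4. The membrane tether Acbd5 fell by 1.19, Mpv17l by 1.0, and catalase, Cat, from 3072 to 3266 CPM to 488 to 1623, by 2.01.

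Of 15 peroxisome assembly genes 7 fell, 2 rose and 6 were not called, with a median of -0.19. Pex7 fell by 0.84, Pex3 by 0.45, Pex6 by 0.42 and Pex19 by 0.38. Pex6 was the only one of the 128 genes called between C26-TDCA and C26, where 1.97% of all genes were called. It differed by -0.23 (adjusted p = 0.03), with 63.8 to 74.0 CPM in C26 and 50.4 to 63.6 in C26-TDCA. The number of genes called in this contrast varied widely with the processing, and Pex6 under the alternatives is not reported here. Among 20 partners and coactivators of the receptor 7 fell, 2 rose and 11 were not called, with a median of -0.24. Beside the 29.2% of all genes that fell, the partners are not read as a set that fell. In C26-TDCA against CT 7 were lower and 4 higher, with a median of 0.04. In C26 against CT the following partners were among those called. Ppargc1b fell by 2.2, Lpin2 by 1.93, Rxrg by 1.61 and Esrra by 1.34. Of 27 other known targets of the receptor 18 fell and 4 rose, with a median of -0.58. Aldh3a2, fatty aldehyde dehydrogenase, went from 136 to 193 CPM to 3.55 to 21.6, at -4.02 (SE 0.26, adjusted p = 2.34e-12). Hsd17b11 and Fitm2 fell by 1.11 and 0.87, and the lysosomal protease Ctsl rose by 1.74. The lists share the CT and C26 mice with the 42 genes and are not independent evidence of direction.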

How the data were processed

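The authors deposited raw read counts per Ensembl gene, 1 column per mouse, used here as deposited. The submitters' processing notes name, in no stated order, HISAT2 2.2.1, featureCounts 2.0.3, Trimmomatic 0.40, FastQC, DESeq2 1.42.0 and bcl2fastq 2.17, and the build GRCm38. For the counting, the strand setting, annotation release and handling of multiply matching reads were not given in the sources used here. Every gene in the table had at least 10 counts in its highest library. Of 15448 genes, 15443 matched a symbol in GENCODE M21.

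Genes passing filterByExpr (14785; 663 removed) were fitted over all 22 libraries with edgeR 4.0.16 (R 4.3.3), TMM scaling and a mean per group; 3 contrasts were tested by quasi-likelihood with Benjamini-Hochberg adjustment over all genes at 0.05. Each standard error is approximate, the size of the change divided by the root of its F statistic, and intervals use 1.96 SE. The script was tested on simulated data. Alternatives were other scalings, DESeq2, limma 3.58.1, no filter, 2 groups only, a replicate block, removal of a length and GC trend, and each mouse left out. Whether replicates share a litter or day is not stated, and the main fit had no such factor. The p-values set group differences against the spread between mice within groups. A litter, day or batch that followed the groups could not be told apart from them.

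The members and lists were chosen with earlier results of these data known. Values are given for both regulators, for up to 3 genes with the lowest adjusted p per role, for genes opposite to their role, and for genes with p under 0.05 between C26-TDCA and C26; from each pathway list, up to 4 called genes by p, some of which are not reported here. Motifs were searched in RefSeq windows.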

Additional observations from a re-analysis of the deposited data

Results flagged for a closer look

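In 5 of 126 sets of mice (42 genes in 3 groups), the highest or lowest mouse stood apart from the rest of its group by Dixon's criterion, which chance meets in about 1 in 20 groups. Acadm was 251 CPM in C26-TDCA mouse 7, with the next mouse at 208. Ehhadh was 194 CPM in CT mouse 8, with the next at 170. Pex11a was 67.1 CPM in C26 mouse 2, with the next at 52.6, and this mouse made its groups overlap. Bdh1 was 77.0 CPM in C26 mouse 1, with the next lowest at 117. Pdk4 was 3.04 CPM in CT mouse 1, with the next at 1.84; without this mouse Pdk4 was called higher in C26, by 0.66 (adjusted p = 0.0244). The 5 values came from 5 different mice.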

How the results depend on the processing

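The counts over the 42 genes stayed within 1.5 times the reported values under every alternative run. Genes lower in C26 than in CT numbered 33 to 34 with each mouse left out in turn, 36 with the length and GC trend removed and 33 otherwise; genes lower by more than 1 log2 unit numbered 13 to 15 with a mouse left out and 12 with upper-quartile scaling. The mitochondrial median ran from -0.64 to -0.58 and the peroxisomal from -1.37 to -1.24 with a mouse left out. For C26-TDCA against C26 the count was 0 throughout. Single genes near 0 changed sign in C26 against CT: Creb3l3 was 0.051 with upper-quartile scaling, 0.0099 with 2 groups only, 0.027 with the replicate block and from -0.048 to 0.015 with a mouse left out, above 0 without C26 mouse 1 or CT mouse 2, but was called lower with the length and GC trend removed (-0.19, adjusted p = 0.0445), and Acaa1a was -0.078 with the trend removed; the cause was not tested. Acaa1a was called higher with upper-quartile scaling (0.21) and with the replicate block (0.19), Etfb was called lower with the trend removed (-0.21) and without C26 mouse 6 (-0.22), and Cpt1a was called lower with the trend removed (-0.40) and without C26 mouse 3, 5 or 7 or CT mouse 2 (-0.29 to -0.26). In C26-TDCA against CT, Creb3l3 was called lower with DESeq2, voom, 2 groups only and the trend removed (-0.28 to -0.19) and without C26-TDCA mouse 6, 7 or 8 or CT mouse 8 (-0.23 to -0.21). There, Cpt1a (-0.33) and Acaa1a (-0.21) were called lower with the trend removed. Crot was called higher with voom (0.26), 2 groups only (0.26), upper-quartile scaling (0.31) and without C26-TDCA mouse 2 (0.31). Abcd2 was no longer called without CT mouse 5 (-0.59, adjusted p = 0.0593).

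With the replicate block, 33 genes were lower and 4 higher in C26. Whether same-numbered mice share more than a number is not stated. Their deviations correlated from -0.20 to 0.34, and a mouse correlated best with its own number in some cases but not in others. A shared cage, day or batch cannot be told from these correlations. Over all genes, calls between C26-TDCA and C26 numbered 256 higher and 35 lower, against 41 and 4 with 2 groups only, 440 and 111 with DESeq2, 409 and 59 with voom, and 9 and 8 with the trend removed, where 52.9% of calls were higher in place of 88.0%; with a mouse left out they ran from 54 to 527 and from 5 to 67. Depth limits Acot3, Acot1, Acot2, Abcd2 and Pdk4, all with levels of a few CPM or less in some mice.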
